A study of Bos taurus with 12 samples.

Results

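The genes examined were the pluripotency factors POU5F1 (OCT4), SOX2 and STAT3, together with LIFR, IL6ST and IL6R, the receptor chains that feed STAT3, and the regulators MYC, LIN28A and SALL4. They were chosen by symbol, as every probe set whose only gene symbol was 1 of these 9. The rule found 7 probe sets for 5 of the 9 genes, among 24016 probe sets and 9155 genes in the table. POU5F1, SOX2 and MYC had 1 probe set each, and STAT3 and IL6R had 2 each. The other 4 genes, LIFR, IL6ST, LIN28A and SALL4, were not analysed here.

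The samples were 12 pools of whole cattle embryos, each hybridised to an Affymetrix bovine array, with 3 pools in each of 4 groups. Day 7 blastocysts came from IVF (in vitro) or from superovulated donors (in vivo), and each Day 7 pool held 25 of them. Other blastocysts of both origins were moved to synchronized recipient heifers, 10 per recipient, and were collected as conceptuses on Day 13, when elongation starts; each Day 13 pool held 5 conceptuses. The Day 13 in vitro group thus spent the days after Day 7 in a uterus, as the Day 13 in vivo group did. The labels call the pools biological replicates and do not say whether pools shared dams, sires, IVF runs or recipients. Each array started from 75 ng of total RNA labelled with a 2-cycle Affymetrix kit. Because whole embryos were used, epiblast, hypoblast and trophoblast were measured together. In such bulk samples fewer cells of a type and less RNA per cell cannot be told apart.

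POU5F1 and SOX2 are transcription factors that bind DNA as a pair and hold the epiblast, the source of the fetus, in a pluripotent state. LIF and other cytokines of the IL6 family bind a private receptor chain such as LIFR or IL6R together with the shared chain gp130, the product of IL6ST. The bound receptor activates Janus kinases, which phosphorylate STAT3, and STAT3 in turn switches on genes that include the feedback inhibitor SOCS3. MYC drives growth and proliferation, LIN28A blocks maturation of let-7 microRNAs, and SALL4 works beside POU5F1 on chromatin. In cattle POU5F1 stays on in the trophectoderm of the blastocyst for longer than it does in mice.

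All levels are log2 intensities. A level of 3.39 was taken as background, the 99th percentile over 48 controls for which no RNA had been added. Differences carry the standard error (SE) of a limma fit over all 12 arrays, and a probe set was called when its Benjamini-Hochberg adjusted p over all 24016 probe sets was below 0.05. If all 3 arrays of a group were at or under background, the fold is a lower bound computed from the background and written as "at least".

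Between Day 7 and Day 13 STAT3 fell and MYC rose in conceptuses of both origins, and POU5F1 and IL6R fell in those of in vitro origin. In the in vivo series 2 of the 7 probe sets were called, 1 higher and 1 lower, where 3.79% of all probe sets were called in either direction. In the in vitro series 4 were called, 1 higher and 3 lower, against 7.51% of all probe sets. Of the same 7, limma called 0 between origins at Day 7, where 1 had an unadjusted p under 0.05 and 0.208% of all probe sets were called. At Day 13 limma called 1 of them between origins, MYC, which was higher in vitro, against 1.2% of all probe sets. The difference of the day effect between origins was called for 0 of the 7 by limma, with 2 at an unadjusted p under 0.05, and for 0.4% of all probe sets. Over the 7 probe sets the median day difference was -1.15 in vivo and -1.53 in vitro. In both series this was the value of the brighter IL6R probe set, which was near background. The median over all probe sets was 0 in both. The table was already normalized between arrays and most probe sets were under background, so that 0 gives no scale for the 7.

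**Figure D1:**
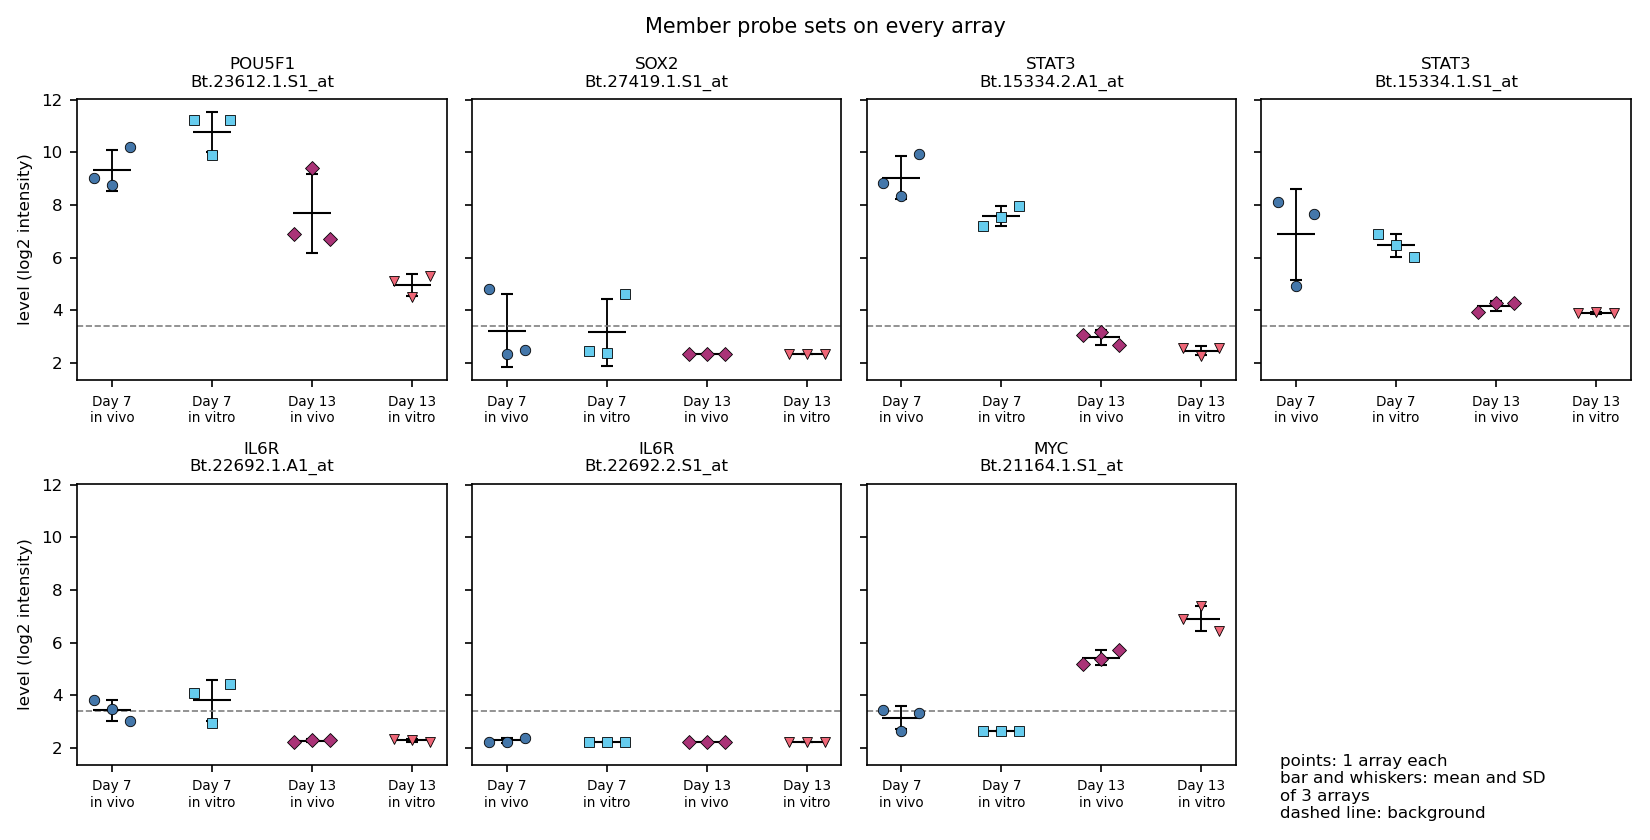
Log2 level of each of the 7 probe sets on each of the 12 arrays, by group, with the group mean and the background level of 3.39 as a line. STAT3 was high on the Day 7 arrays and MYC on the Day 13 arrays, POU5F1 was above background on all 12 arrays, and SOX2 exceeded it on 2.

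IL6R, the private receptor chain for IL6, was near background. On the brighter probe set (Bt.22692.1.A1_at) the Day 7 in vivo pools, in replicate order, read 3.81, 3.47 and 3.01. The Day 7 in vitro pools read 4.07, 2.94 and 4.42. All 6 Day 13 arrays lay between 2.23 and 2.33, under background. So 4 of the 12 arrays exceeded background, all from Day 7, and neither day overlapped the other within an origin. IL6R fell by 1.53 ± 0.35 (SE) in the in vitro series, at least 1.34-fold (limma, adjusted p = 0.0341). The in vivo difference of -1.15 ± 0.35 did not pass (adjusted p = 0.149). With values under background set to background before the fit, the in vitro difference was -0.57 (adjusted p = 0.236). The 2 IL6R probe sets disagreed. The second one (Bt.22692.2.S1_at) exceeded background on 0 of 12 arrays, with 11 of them at 2.23 and 1 at 2.38, and had a difference of -0.05 in vivo (adjusted p = 0.568) and 0 in vitro.

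STAT3, the transcription factor at the end of the LIF and IL6 pathway, had the largest fall of the 7 probe sets in vivo. On its brighter probe set (Bt.15334.2.A1_at) the Day 7 in vivo pools read 8.85, 8.34 and 9.95, and the Day 7 in vitro pools 7.22, 7.54 and 7.97. The Day 13 in vivo pools read 3.06, 3.19 and 2.67, and the Day 13 in vitro pools 2.58, 2.28 and 2.58. The groups stood in the order Day 7 in vivo, Day 7 in vitro, Day 13 in vivo and Day 13 in vitro, and no neighbours in that order overlapped, though all 6 Day 13 arrays were under background and their order there carries no level. From Day 7 to Day 13 the signal fell by 6.07 ± 0.38 (SE) in vivo, at least 50.5-fold (limma, adjusted p = 0.000102). In vitro it fell by 5.10 ± 0.38, at least 18.2-fold (adjusted p = 0.000183). The Day 7 in vitro mean of 7.58 ± 0.38 (SD, n = 3) was below the in vivo mean of 9.05 ± 0.82 (SD, n = 3). That difference of -1.47, or 2.77-fold (95% interval -2.35 to -0.60), did not pass across all probe sets (adjusted p = 0.359).

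The second STAT3 probe set (Bt.15334.1.S1_at) gave a smaller fall that limma did not call. It read 8.10, 4.92 and 7.67 in the Day 7 in vivo pools, and 6.91, 6.48 and 6.02 in the Day 7 in vitro pools. At Day 13 it read 3.94, 4.28 and 4.28 in vivo and 3.90, 3.94 and 3.89 in vitro. All 12 arrays were above background, the Day 7 arrays were above the Day 13 arrays without overlap, and the 2 origins overlapped at each day. Of the 12 values 4 were identical to a value on another array, all at Day 13. Over all probe sets this held for 10.3% of values above background. Whether the Day 13 level was a floor of this probe set was not tested, so the folds given next carry no certain size. The difference was -2.73 ± 0.72 (SE) in vivo, or 6.63-fold (adjusted p = 0.0915), and -2.56 ± 0.72 in vitro, or 5.90-fold (adjusted p = 0.0735). Much of the spread came from the Day 7 in vivo replicate 2, at 4.92. Without that array the differences were -3.72 in vivo (adjusted p = 0.00047) and -2.56 in vitro (adjusted p = 0.00112), and both passed. These were the lowest values of the 12 limma fits that each left out 1 array. The highest adjusted p was 0.238 in vivo and 0.227 in vitro. On the array left out the brighter probe set read 8.34. The mean of both probe sets fell by 4.40 in vivo (adjusted p = 0.00175) and fell by 3.83 in vitro (adjusted p = 0.00233).

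The disagreement between the 2 STAT3 probe sets was present on every array. Within arrays, the probe set with the higher mean exceeded the other by 0.75, 3.42 and 2.28 in the Day 7 in vivo pools and by 0.31, 1.07 and 1.94 in the Day 7 in vitro pools. At Day 13 it lay under the other, with differences of -0.88, -1.09 and -1.61 in vivo and -1.32, -1.66 and -1.31 in vitro. The difference between probe sets thus changed sign between the days on all arrays, by -3.34 in vivo and -2.54 in vitro. With values under background set to background these changes were -2.93 and -1.62. The brighter probe set was under background on all 6 Day 13 arrays, so its Day 13 differences carry no exact size, and the comparison, made after the values were seen, is a description. Which transcripts of STAT3 each probe set reads, and whether the second lay at a floor at Day 13, was not tested.

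**Figure D2:**
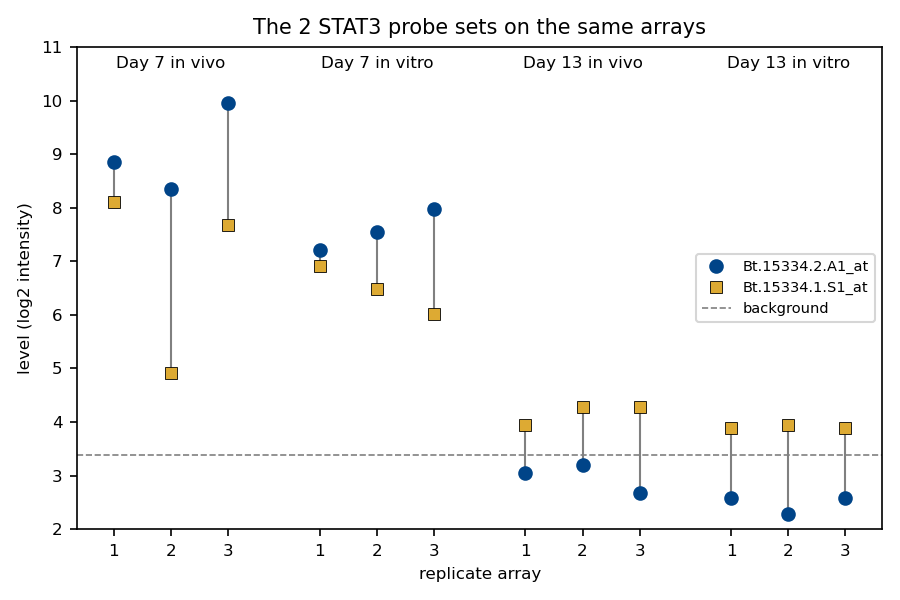
Log2 levels of the 2 STAT3 probe sets on each array, joined within arrays, for the 4 groups of 3 pools. At Day 7 the brighter probe set was above the other on all 6 arrays, and at Day 13 it was below the other and under background on all 6.

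POU5F1, the factor that marks the inner cell mass and early trophectoderm, was above background on all 12 arrays. On its probe set (Bt.23612.1.S1_at) the Day 7 in vitro pools read 11.22, 9.89 and 11.22, and the Day 7 in vivo pools 9.01, 8.76 and 10.20. The Day 13 in vivo pools read 6.92, 9.43 and 6.72, and the Day 13 in vitro pools 5.13, 4.51 and 5.30. By group mean the order was Day 7 in vitro at 10.78 ± 0.77, Day 7 in vivo at 9.33 ± 0.77, Day 13 in vivo at 7.69 ± 1.51 and Day 13 in vitro at 4.98 ± 0.42 (all SD, n = 3). The first 3 groups overlapped with their neighbours in that order, and only the last pair, both of Day 13, did not. POU5F1 fell by 5.80 ± 0.76 (SE) from Day 7 to Day 13 in vitro, which is 55.7-fold (limma, adjusted p = 0.00317). In vivo the difference was -1.64 ± 0.76 (95% interval -3.38 to 0.10; adjusted p = 0.403).

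Between origins POU5F1 was not called at either day. At Day 7 the in vitro level was 1.45 above the in vivo level (95% interval -0.29 to 3.20; adjusted p = 0.836). At Day 13 the difference was -2.71, or 6.53-fold lower in vitro (95% interval from -4.45 to -0.97; adjusted p = 0.139), and the 2 groups did not overlap. The day effects of the origins differed by -4.16 ± 1.08 (SE), in vitro minus in vivo, which did not pass either (95% interval -6.62 to -1.70; adjusted p = 0.204).

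A single Day 13 in vivo pool, replicate 2, set much of the width of these intervals. Its POU5F1 level of 9.43 lay within the Day 7 in vivo range. Without it the in vivo day difference was -2.51 (adjusted p = 0.0568) and the Day 13 origin difference -1.84 (adjusted p = 0.203), so neither passed. Of 18 measured hypoblast markers 11 were above background on all 3 Day 13 in vivo pools, and this pool was the highest of its group for 6 of them and the lowest for 5. APOE, an apolipoprotein, read 10.12, 11.71 and 9.55 over the 3 pools, and NID2, a basement membrane protein, 10.49, 9.79 and 10.77. The mean over the 18 markers was 7.79, 7.95 and 7.78. This pool also had the lowest difference between the 3 prime and 5 prime GAPDH control probe sets of its group, 2.85 where the others had 4.62 and 4.57. The part of these in its POU5F1 level was not tested.

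Array controls moved with the POU5F1 fall in vitro. The mean of the poly-A spike-in probe sets, RNA added at labelling, was 9.27, 10.50 and 12.99 on the Day 13 in vitro arrays, and lay between 13.34 and 14.96 on the other 9. POU5F1 on those 3 arrays was 5.13, 4.51 and 5.30. Once the spike-in mean entered the fit as a covariate, the in vitro day difference was -5.02 and did not pass (limma, adjusted p = 0.155). The spike-in mean separated the Day 13 in vitro group from the other 9 arrays, so this fit cannot tell the 2 apart. Without replicates 1 and 2 of that group the difference was -5.48. That fit leaves 1 pool in the group, which is assumed to vary like the other groups. Both checks were added after the data were seen.

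**Figure D3:**
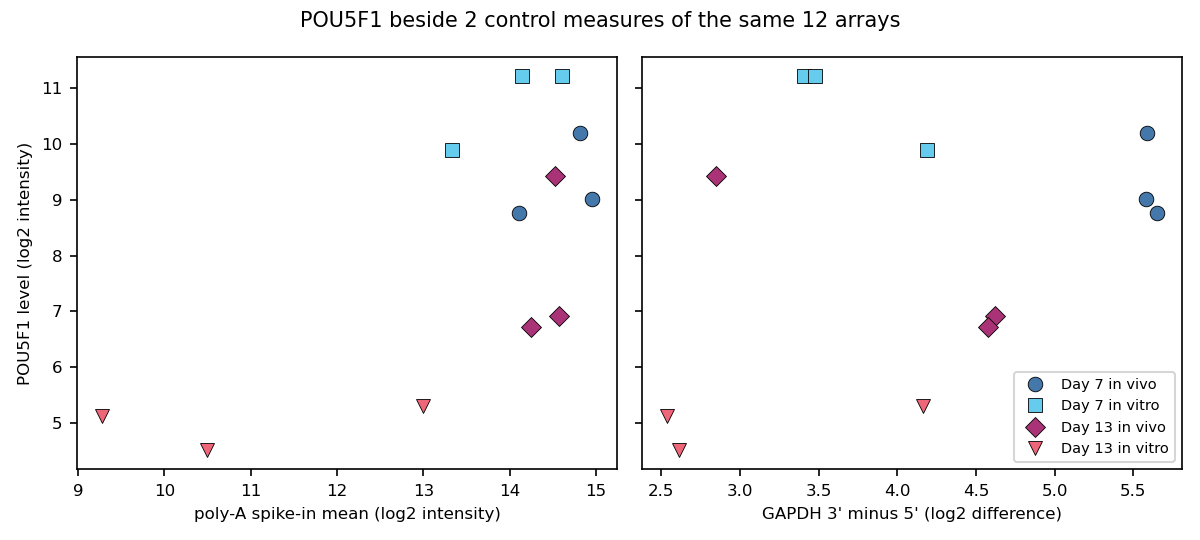
POU5F1 log2 level on each array against the mean log2 level of the poly-A spike-in probe sets and against the GAPDH 3 prime minus 5 prime difference, by group. The 3 Day 13 in vitro arrays had the lowest POU5F1 levels, 4.51 to 5.30, over spike-in means from 9.27 to 12.99.

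SOX2, the partner of POU5F1, was mostly under background. On its probe set (Bt.27419.1.S1_at) 1 Day 7 in vivo pool read 4.82 and the others of that group 2.36 and 2.50. Of the Day 7 in vitro pools 1 read 4.64, and the others 2.48 and 2.38. All 6 Day 13 pools read 2.36. Thus 2 of 12 arrays exceeded background, 1 of each Day 7 group, and 7 arrays shared the lowest value within a tolerance of 0.01. The day difference was -0.87 ± 0.75 (SE) in vivo (95% interval -2.58 to 0.85; adjusted p = 0.654) and -0.80 ± 0.75 in vitro (95% interval -2.52 to 0.92; adjusted p = 0.776). The Day 7 difference between origins was -0.06, and that at Day 13 was 0. No order of the groups can be read from SOX2: the Day 7 groups overlapped, the Day 7 in vivo range reached down to the Day 13 level, and 10 of 12 arrays were not above background.

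MYC, the growth regulator that LIF and STAT3 signalling can switch on in mouse embryonic stem cells, went the other way from STAT3. On its probe set (Bt.21164.1.S1_at) the Day 7 in vitro pools all read 2.65 and the Day 7 in vivo pools 3.44, 2.65 and 3.34, so that 1 of 6 Day 7 arrays exceeded background. The Day 13 in vivo pools read 5.18, 5.37 and 5.73, and the Day 13 in vitro pools 6.90, 7.38 and 6.45. The Day 13 in vitro group was the highest and did not overlap the Day 13 in vivo group, which did not overlap Day 7, while the Day 7 groups overlapped. MYC rose by 2.28 ± 0.28 (SE) in vivo (limma, adjusted p = 0.00295) and by 4.25 ± 0.28 in vitro, at least 11.4-fold (adjusted p = 7.67e-05). The Day 7 in vivo mean of 3.14 was under background, and with values under background set to it the rise in vivo was 2.02 (adjusted p = 0.00201).

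At Day 13 MYC was 1.48 ± 0.28 (SE) higher in vitro than in vivo, or 2.79-fold (95% interval 0.85 to 2.11; limma, adjusted p = 0.0481). This call lay close to the threshold and was kept in 7 of 25 alternatives. Once the spike-in mean, which separated the Day 13 origins without overlap, was a covariate the difference was 1.13 (adjusted p = 1). With only Day 13 in vitro replicate 3 kept in its group it was 1.02 (adjusted p = 0.467), and that group then had no spread of its own. At Day 7 the origin difference of -0.49 was not called (adjusted p = 0.836). The larger rise in vitro, by 1.97 ± 0.39 (95% interval 1.08 to 2.86), did not pass the test of the difference of day effects (adjusted p = 0.0933).

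**Figure D4:**
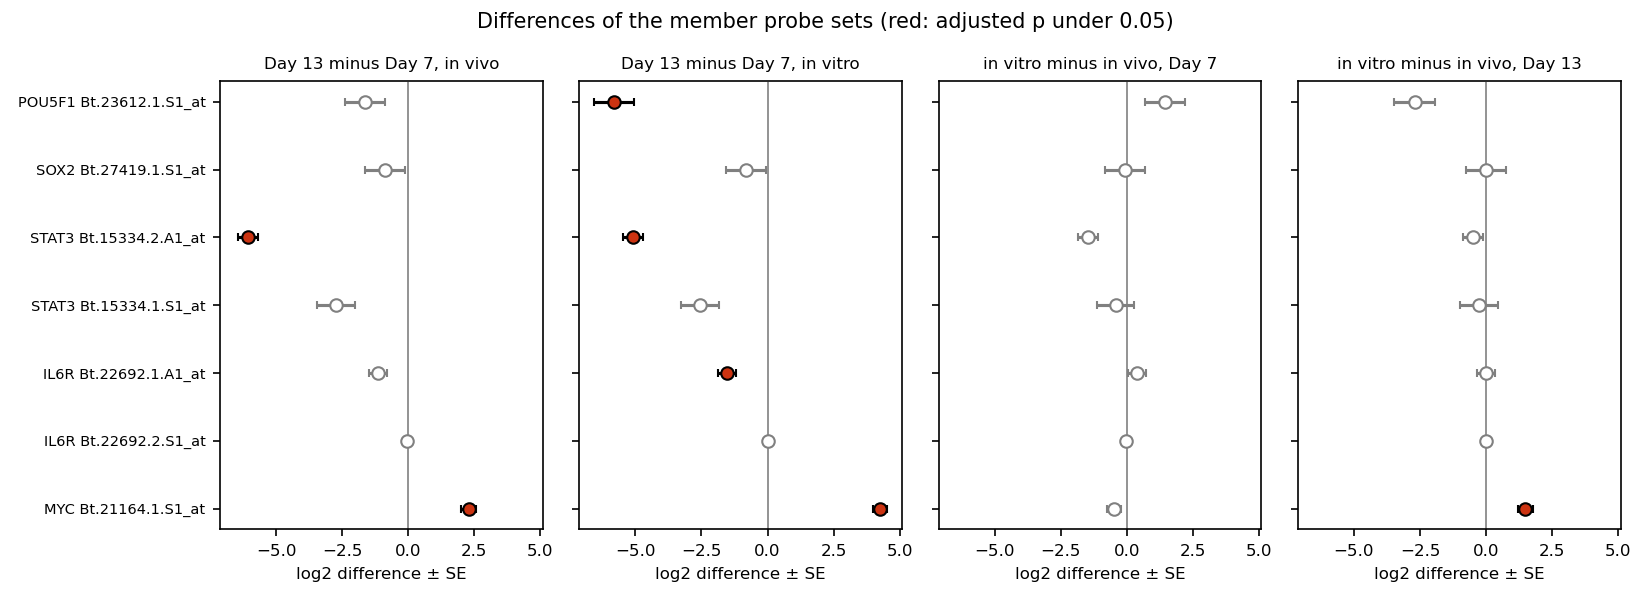
Fitted log2 differences of the 7 probe sets in the 4 contrasts between a pair of groups, with bars of 1 SE to each side and called values in red. The brighter STAT3 probe set lay farthest below 0 in vivo, at -6.07, POU5F1 farthest below 0 in vitro, at -5.80, and MYC above 0 in both day contrasts, at 2.28 and 4.25.

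The genes whose pattern was nearest to each of these were found by the root mean square difference of mean-centred log2 profiles over the 12 arrays, among 5708 other genes with probe sets above background on at least 3 arrays (5709 for SOX2). For STAT3 they were CLDN10, a tight junction claudin, at 0.582, EFHD1 at 0.726 and AIF1L at 0.751, where STAT3 itself varied by 2.87. The day differences of CLDN10 were -5.95 in vivo and -5.88 in vitro. Those nearest to POU5F1, whose own variation was 2.29, were CKMT1A, a mitochondrial creatine kinase, at 0.579, CCDC28B at 0.673 and TIMP2, an inhibitor of metalloproteinases, at 0.722. TIMP2 had a difference of -0.23 in vivo, fell by 5.24 in vitro (adjusted p = 0.0007) and had a Day 13 difference of -3.82, in vitro minus in vivo (adjusted p = 0.0128). The same Day 13 difference was not called for CKMT1A, at -2.41 (limma, adjusted p = 0.101), or CCDC28B, at -1.66 (adjusted p = 0.42).

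For MYC, which varied by 1.75, the nearest genes were SLC25A12, a mitochondrial carrier for aspartate and glutamate, at 0.447, MANSC1 at 0.448 and ABRACL at 0.453. MANSC1 rose by 1.99 in vivo and 4.02 in vitro and was 1.95 higher in vitro at Day 13 (adjusted p = 0.00786). That Day 13 difference was not called for SLC25A12, at 1.69 (limma, adjusted p = 0.0599), or ABRACL, at 0.65 (adjusted p = 0.189). IL6R, with a variation of 0.771, was nearest to KCTD11 at 0.211, RAB7B at 0.230 and ARRB2 at 0.290. SOX2, at 0.875, was nearest to CTDSP1 at 0.381, HSPB3 at 0.391 and IYD at 0.483. These likenesses describe 12 arrays of 4 groups, and for SOX2 they rest on 2 arrays.

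Among the other genes of the pathway, the ligand IL6 fell in both origins. Of 9 ligands of the gp130 family 3 were measured, and 1, IL6, exceeded background on at least 3 arrays. IL6 read 7.00, 7.00 and 6.98 in the Day 7 in vivo pools and 7.90, 7.87 and 7.68 in the Day 7 in vitro pools. At Day 13 it read 2.54, 2.54 and 2.39 in vivo and 2.23, 2.23 and 2.31 in vitro, all under background. It fell at least 12.1-fold in vivo (limma, adjusted p = 1.14e-08) and at least 21.5-fold in vitro (adjusted p = 1.95e-09). At Day 7 it was 0.82 ± 0.06 (SE) higher in vitro (adjusted p = 0.00207), a call that 5 of 25 alternatives lost, among them the GAPDH covariate (adjusted p = 0.0666). LIF, the ligand that gives LIFR its name, read 3.24, 3.72 and 2.97 in the Day 7 in vivo pools, and its day differences of -0.21 and -0.24 were not called.

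Of 6 partner receptors 2 were measured, and 0 of them exceeded background on at least 3 arrays or were called by limma, with 0 at an unadjusted p under 0.05. Of 10 Janus kinases and other STATs 5 were measured, 1 exceeded background on at least 3 arrays and 0 were called by limma, again with 0 at an unadjusted p under 0.05. JAK1, the kinase that docks on gp130, had differences of -0.74 in vivo and 0.17 in vitro. JAK2 was not analysed here. Of 18 inhibitors of the pathway 12 were measured, with 2 lower and 0 higher in vivo and 1 lower and 0 higher in vitro, and a median difference of -0.08 and -0.10. PIAS1, a SUMO ligase that restrains STATs, fell by 2.96 ± 0.39 (SE) in vivo (adjusted p = 0.00456) and fell by 1.76 ± 0.39 in vitro (adjusted p = 0.0304). SOCS2, a feedback inhibitor of cytokine receptors, fell by 2.15 ± 0.46 in vivo (adjusted p = 0.0396) and had a difference of -0.07 in vitro. SOCS3 was under background on all arrays. For scale, among all 9155 genes 2.7% were called higher and 2.8% lower in vivo, and 5.0% higher and 5.77% lower in vitro.

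Of 27 genes listed as STAT3 targets 23 were measured, and in vivo 1 was higher and 1 lower, in vitro 1 was higher and 3 lower, with medians of -0.09 and -0.05. Over all genes 2.7% were higher and 2.8% lower in vivo and 5.0% higher and 5.77% lower in vitro, so the counts in vivo and the count higher in vitro lie near the shares of all genes. A2M, the acute phase protein alpha-2-macroglobulin, fell by 4.86 ± 0.89 (SE) in vivo (adjusted p = 0.0203) and fell by 4.81 ± 0.89 in vitro (adjusted p = 0.0146). TIMP1, an inhibitor of metalloproteinases, had a difference of 0.07 in vivo and fell by 4.79 ± 0.90 in vitro (adjusted p = 0.0157), and its other probe set gave 0.43 and -3.87 (adjusted p = 0.0191 in vitro). CEBPD, a transcription factor of the acute phase, fell by 1.54 ± 0.31 in vitro (adjusted p = 0.0207), with a difference of -0.77 in vivo (adjusted p = 0.295). The CEBPD probe sets disagreed: a second gave -2.96 in vivo, which was called (adjusted p = 0.0112), and -0.68 in vitro, which was not (adjusted p = 0.577), and the remaining one -0.14 and -0.16, neither called. HIF1A, an oxygen-regulated transcription factor subunit, rose by 2.67 ± 0.50 in vivo (adjusted p = 0.0224) and by 2.17 ± 0.50 in vitro (adjusted p = 0.0351). KLF4, a pluripotency factor downstream of STAT3 in mouse cells, had differences of -1.67 in vivo (adjusted p = 0.253) and 0.17 in vitro. KLF5, its relative, had -0.70 and -0.27, and on its other probe set -2.81 and 1.22, none of them called.

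**Figure D5:**
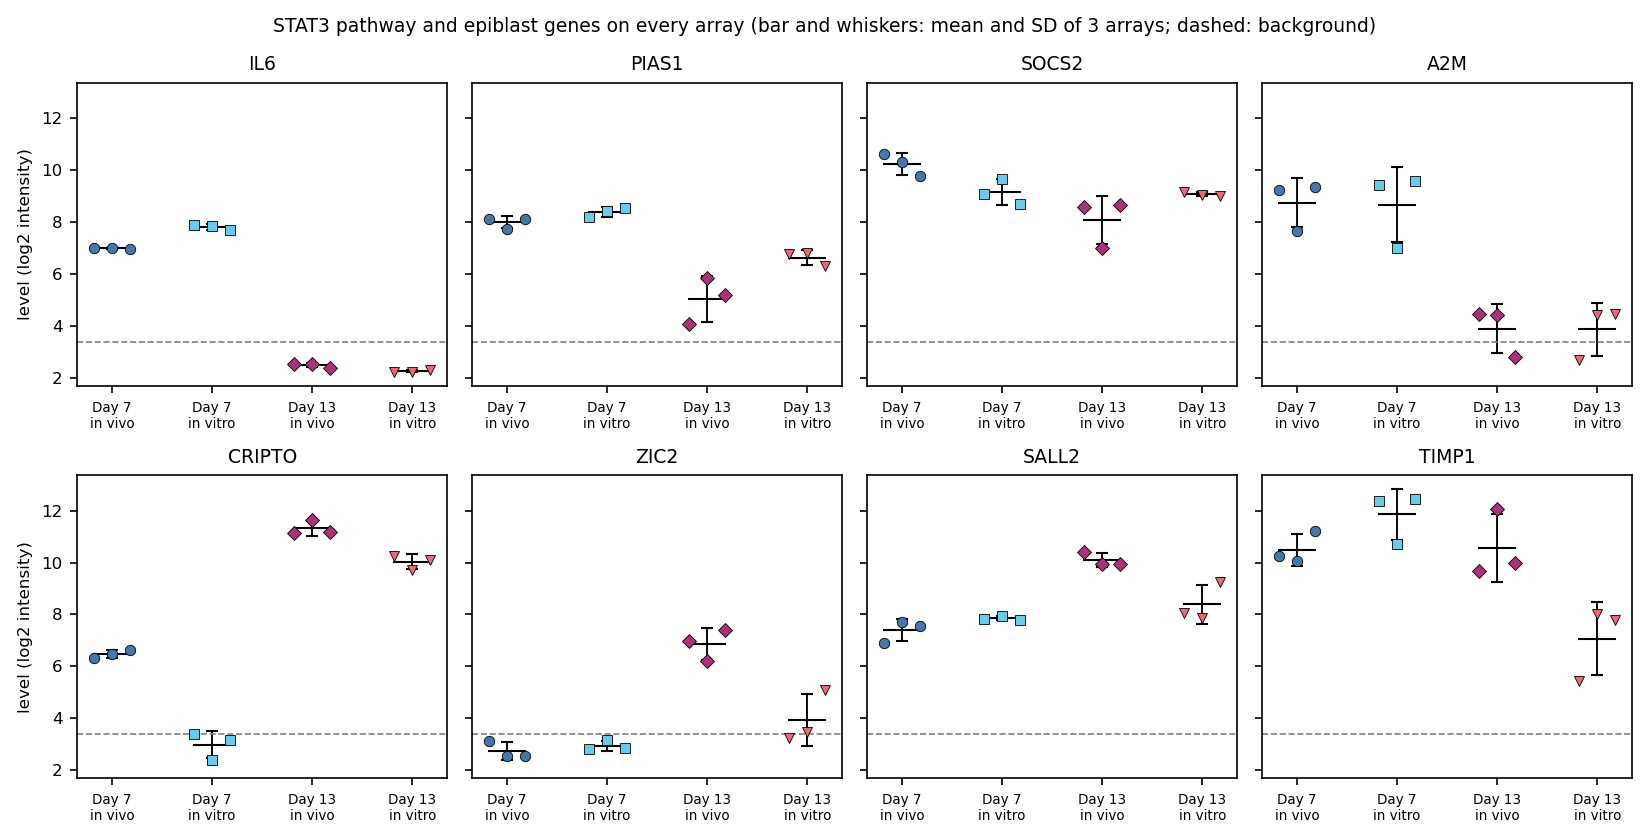
Log2 level on each array of 8 genes of the pathway and epiblast lists, by group, with the background level of 3.39 as a line. IL6 and A2M were high at Day 7, CRIPTO was highest at Day 13, and TIMP1 was low in the Day 13 in vitro pools.

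CRIPTO rose in both origins and ZIC2 in vivo, in pools where POU5F1 did not rise. Of 42 other pluripotency and epiblast genes 12 were measured, with 2 higher in vivo, 1 higher in vitro and 0 lower in either. The shares over all genes were 2.7% higher and 2.8% lower in vivo, and 5.0% and 5.77% in vitro. CRIPTO, the co-receptor for NODAL, read 6.31, 6.46 and 6.64 in the Day 7 in vivo pools and 3.39, 2.39 and 3.16 in the Day 7 in vitro pools. At Day 13 it read 11.14, 11.65 and 11.16 in vivo and 10.27, 9.72 and 10.10 in vitro. It rose by 4.85 ± 0.27 (SE) in vivo (adjusted p = 6.57e-05) and at least 99.8-fold in vitro (adjusted p = 5.96e-06). In Day 7 pools of in vitro origin it was lower, by at least 8.46-fold (adjusted p = 0.00257), where 0.218% of all genes were called higher in vitro and 0.0765% lower.

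ZIC2, a zinc finger factor of the epiblast, read 6.98, 6.20 and 7.40 in the Day 13 in vivo pools and 3.22, 3.49 and 5.09 in the Day 13 in vitro pools. It rose at least 11.1-fold in vivo (adjusted p = 0.00284). At Day 13 the difference was -2.93 ± 0.50 (SE), lower in vitro (adjusted p = 0.0335), in the same direction as the uncalled POU5F1 difference, a call kept in 10 of 25 alternatives. At that day 0.852% of all genes were called higher in vitro and 0.786% lower. Of 28 relatives of SALL, SOX and POU genes 6 were measured and 1 was called: SALL2, which rose by 2.72 ± 0.37 in vivo (adjusted p = 0.00518) and had a difference of 0.54 in vitro.

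Genes around MYC were called in both directions, by limma in the in vitro series. Of 17 genes of the MYC, MAX and MXD network 12 were measured, with 0 called by limma in vivo (4 at an unadjusted p under 0.05) and 2 higher and 2 lower in vitro. Among all genes 5.0% were called higher and 5.77% lower in vitro. MYCBP, which binds MYC, rose by 2.73 (adjusted p = 0.0254), and MLX, a MAX-like factor, by 1.10 (adjusted p = 0.0367). MXI1, an antagonist of MYC, fell at least 3.50-fold (adjusted p = 0.0111), and MGA, which competes for MAX, fell by 1.06 (adjusted p = 0.018), all in vitro. The other MGA probe set gave -0.14 in vitro (adjusted p = 1). MAX, the obligate partner of MYC, was under background on all arrays.

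Of 20 genes of the LIN28 and let-7 pathway 7 were measured, with 0 called by limma in vivo (2 at an unadjusted p under 0.05) and 2 lower in vitro: DGCR8, the partner of the microRNA processing enzyme DROSHA, by -0.96 (adjusted p = 0.0149) and AGO2, which carries the mature microRNA, by -1.26 (adjusted p = 0.0193). Of 19 chromatin partners of SALL4 and POU5F1 14 were measured, with 2 lower in vivo and 1 higher and 2 lower in vitro. For both lists the shares over all genes were 2.7% higher and 2.8% lower in vivo, and 5.0% and 5.77% in vitro. HDAC1, a histone deacetylase, fell by 1.91 in vivo (adjusted p = 0.00183) and fell by 1.10 in vitro (adjusted p = 0.0159). MTA3, a subunit of the NuRD complex, fell by 2.09 in vivo (adjusted p = 0.000539) and fell by 2.17 in vitro (adjusted p = 0.000329), while its other probe set gave -1.49 (adjusted p = 0.248) and -0.21 (adjusted p = 1). RBBP4, a histone chaperone of the same complex, rose by 1.94 in vitro (adjusted p = 0.0441).

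The mean level of the trophoblast markers was higher at Day 13 in both origins. The mean level of 16 measured trophoblast markers per array was 6.37 to 7.06 in the Day 7 in vitro pools, 6.52 to 7.02 in the Day 7 in vivo pools, 8.24 to 8.69 in the Day 13 in vivo pools and 9.12 to 9.76 in the Day 13 in vitro pools. So the group with the lowest POU5F1 and the highest MYC had the highest trophoblast level, with no overlap. Between origins at Day 13, however, limma called 0 of the 16 markers, with 7 at an unadjusted p under 0.05. Of the 16, 5 rose and 0 fell in vivo, and 8 rose and 1, TEAD4, fell in vitro. The median day difference over the 16 was 0.35 in vivo and 2.41 in vitro. Over all genes 2.7% were called higher and 2.8% lower in vivo, and 5.0% and 5.77% in vitro. TKDP1, a trophoblast Kunitz domain protein, rose by 7.61 in vivo and 8.17 in vitro (adjusted p = 0.00508 and 0.00245). ASCL2, a trophoblast transcription factor, rose by 3.84 and 4.58 (adjusted p = 0.00011 and 3.58e-05), SSLP1 by 3.17 and 6.01 (adjusted p = 0.0106 and 0.000293), and PAG8, a pregnancy-associated glycoprotein, at least 36.0-fold and at least 93.7-fold (adjusted p = 0.000158 and 3.85e-05). DLX3 and HAND1 were under background on all arrays. The part of the trophoblast share in the POU5F1, STAT3 and MYC differences was not tested.

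For 18 measured hypoblast markers the mean level was 7.78 to 7.95 in the Day 13 in vivo pools and 6.41 to 7.08 in the other 9. In vivo 6 rose and 1, DAB2, fell, and in vitro 0 rose and 1, GATA6, fell. The median day difference over the 18 was 0.35 in vivo and -0.0015 in vitro. Of all genes 2.7% were called higher and 2.8% lower in vivo, and 5.0% and 5.77% in vitro. LAMB1 rose by 2.85 in vivo (adjusted p = 0.00311) and had a difference of 0.12 in vitro, and APOA2, which rose at least 28.1-fold in vivo (adjusted p = 0.00806), had a Day 13 difference of -4.97, lower in vitro (adjusted p = 0.0403). AFP, APOB, CUBN, HNF4A and TTR were under background throughout. The Day 13 in vivo group, in which POU5F1, ZIC2 and SALL2 were higher than in the Day 13 in vitro group by their means, was thus also the group of the highest hypoblast level. Between origins at Day 13 limma called 1 of the 18 hypoblast markers, APOA2, where 0.786% of all genes were called lower in vitro.

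Cells from outside the embryo were looked for with 3 lists. Mean levels per array were 3.10 to 4.21 for 11 cumulus and follicular genes, 3.08 to 3.47 for 10 uterine genes and 2.38 to 2.91 for 14 blood genes. Of the cumulus genes 4 exceeded background on at least 3 arrays, of the uterine genes 3 and of the blood genes 3. Depending on the group, 2 to 4 cumulus genes, 2 to 3 uterine genes and 1 blood gene exceeded background on all 3 arrays. Picked after their values were seen, genes under background on all 12 arrays were FSHR, AMH and FOXL2. The uterine genes PGR, ESR1 and SERPINA14, and PTPRC, CD3E and CD14 of leukocytes, were under it as well. In vivo 2 cumulus genes rose and in vitro 1, where 2.7% of all genes were called higher in vivo and 5.0% in vitro. STAR, a cholesterol carrier of steroid-forming cells, rose by 3.32 and 3.67 (adjusted p = 0.0162 and 0.00725), and TNFAIP6 at Day 13 was lower in the in vitro pools, at least 3.08-fold (adjusted p = 0.0111). Of the uterine genes limma called 0 in any contrast, with 1 at an unadjusted p under 0.05 in vivo between the days and 1 at Day 7 between the origins. HBB, a globin, fell by 4.43 in vivo (adjusted p = 0.0224) and at least 14.7-fold in vitro (adjusted p = 0.0157). Another HBB probe set gave -4.08 in vivo (adjusted p = 0.0625) and -4.40 in vitro (adjusted p = 0.0298).

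On each array 41.3% to 42.0% of probe sets exceeded background. The GAPDH 3 prime minus 5 prime difference, which grows when labelled RNA is short, was 5.58 to 5.65 in the Day 7 in vivo pools, 3.40 to 4.19 in the Day 7 in vitro pools, 2.85 to 4.62 in the Day 13 in vivo pools and 2.53 to 4.17 in the Day 13 in vitro pools. It separated the origins at Day 7 without overlap. With it as a covariate the Day 7 POU5F1 difference between origins was -0.06 in place of 1.45. Because the measure separated the Day 7 origins, that fit cannot tell it apart from origin.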

How the data were processed

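RNA from 12 pools was measured on Affymetrix bovine arrays. The authors deposited 1 table of log2 intensities, already normalized between arrays. The submitters' processing notes name RMA, GCRMA and limma, with no version, and do not say whether RMA or GCRMA gave the table. All 12 columns were used and 0 were left out. Of 24128 probe sets 112 are controls. Of the other 24016, 13292 carry 1 gene symbol, 86 several and 10638 none in the platform annotation used for names.

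A linear model of 4 group means was fitted with limma 3.58.1 in R 4.3.3 (lmFit, eBayes without trend), with 5 contrasts and two-sided tests, adjusted by Benjamini-Hochberg over 24016 probe sets. The procedure was tested on simulated data. The background of 3.39 is the 99th percentile over 48 controls for which no RNA had been added. The plan had described these as antisense controls, which the table does not list under that name, and the level was set with the data known. The 3 pools per group limit the precision. The p-values set each difference between groups against a spread between pools that the 4 groups share. Whether those pools were independent in their animals is not known.

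Each gene is given by its brightest probe set. All probe sets are given for the genes examined, and for list genes those above background that differed in their calls, with those of TIMP1 and KLF5. Named genes were all probe sets of the 9 genes, up to 4 called genes per list with the smallest adjusted p, and LIF, JAK1, JAK2, SOCS3, KLF4, KLF5, CRIPTO and MAX whatever their result; another item of the rule is not reported here. The 3 genes nearest in pattern were named for each gene. Lists of 15 kinds were counted without a set test. The members and lists were chosen with earlier results of these data known. Genes named as under background on all arrays were chosen after their values were seen. Of 18 same-numbered pairs of pools from different groups, 3 had deviations correlated over 0.1, with correlations from -0.605 to 0.386. Pairs of unlike number were not compared, so whether pools were paired or shared dams, sires, IVF runs or recipients is not known. Alternatives covered normalization, filtering, the variance prior, array weights, the groups fitted, the replicate number, labelling controls, the probe set and each pool left out in turn.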

Additional observations from a re-analysis of the deposited data

Results flagged for a closer look

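IL6 fell more between Day 7 and Day 13 in the in vitro series than in the in vivo series. The difference of the day effects, in vitro minus in vivo, was -1.06 ± 0.09 (SE) and passed the test of the interaction itself (limma, adjusted p = 0.00267). With values under background set to background it was -0.82 (adjusted p = 0.00369). It was called under 20 of 24 alternatives and not with ribosomal centring (-0.40, adjusted p = 0.333), the filter on dim probe sets (adjusted p = 0.053), the trended robust prior (adjusted p = 0.49) or the spike-in covariate (adjusted p = 0.0664). All Day 13 arrays were under background for IL6, so the Day 7 levels carry the difference.

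NID2, a basement membrane protein of the hypoblast list, had day differences of opposite sign in the 2 origins, with the days apart on every array. It rose by 2.19 in vivo (adjusted p = 0.00693), and its in vitro difference of -0.37 was not called. The difference of the day effects was -2.56 ± 0.44 (SE), and the interaction test did not pass (limma, adjusted p = 0.0638). At Day 7 NID2 was 2.69 higher in vitro (adjusted p = 0.0192), a call kept under 16 of 25 alternatives. It was lost with ribosomal centring (adjusted p = 0.0666), the GAPDH covariate (adjusted p = 0.058), the spike-in covariate (adjusted p = 0.0556), the replicate number as a block (adjusted p = 0.123), the trended robust prior (adjusted p = 0.0954) and only the groups compared (adjusted p = 0.247). Of the Day 13 in vitro pools, leaving out replicate 1 gave an adjusted p of 0.0535, leaving out replicate 2 gave 0.055 and leaving out both gave 0.115.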

How the results depend on the processing

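The falls of the brighter STAT3 probe set were called under 26 of 26 alternatives other than its second probe set (-6.52 to -4.40 in vivo, -5.28 to -3.83 in vitro). The rise of MYC was called under 25 of 25 in vitro and 24 of 25 in vivo, lost with only the groups compared in the fit (adjusted p = 0.0676). The POU5F1 fall in vitro was called under 23 of 25 (-6.55 to -5.02) and the IL6R fall in vitro under 10 of 25. The cause of the changes below was not tested. Centring on ribosomal protein genes moved the median of all probe sets by -0.45 and 0.21 in the day contrasts in vivo and in vitro, by -0.51 and 0.15 between origins at Day 7 and Day 13 and by 0.66 in the interaction. Centring on probe sets above background moved it by 0.13, -0.03, -0.15, -0.31 and -0.16 in the same order, and quantile normalization by 0.

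Of the 7 probe sets, the in vivo day count of 2 became 5 with ribosomal centring and 1 with only the groups compared. The in vitro day count of 4 became 2 with the spike-in covariate and 2 without Day 13 in vitro replicates 1 and 2, both added after seeing the data. The Day 7 origin count of 0 became 1 with ribosomal centring. The Day 13 origin count of 1 became 0 under quantile normalization, the trended prior with and without robust estimation, only the groups compared, the GAPDH covariate, the spike-in covariate and the loss of both Day 13 in vitro replicates. It became 3 with centring on probe sets above background, and 2 with ribosomal centring, the filter on dim probe sets and array weights. With the replicate number as a block it was 0 (MYC adjusted p = 0.131), and whether the numbers pair the pools is not known. The block gave 3 in place of 4 in the in vitro day contrast and left the other counts as they were. The interaction count of 0 became 1 with ribosomal centring and the filter, and 2 with array weights. Leaving out single pools gave 0 to 1 for the Day 13 origin and for the interaction count.

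POU5F1 was called in vivo with ribosomal centring (-2.09, adjusted p = 0.0427), and lost its in vitro call with the spike-in covariate (-5.02) and without both replicates (-5.48). Its Day 7 origin difference turned to -0.0619 with the GAPDH covariate. Its Day 13 origin difference was called with centring on probe sets above background (-3.01), ribosomal centring (-2.56), the filter (-2.71) and array weights (-2.67), and its interaction with array weights (-4.54). STAT3 at Day 7 was called between origins with ribosomal centring (-1.98, adjusted p = 0.0387), while its other probe set lost the day calls (-2.73 and -2.56).

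Other reversals were of differences that were not called. For SOX2 the Day 7 origin difference was 0.0195 with the spike-in covariate and -0.80 to 0.74 without single pools. Its interaction was -0.10 with centring on probe sets above background and -0.74 to 0.80 without single pools. For the second STAT3 probe set the Day 7 origin difference was 0.27 with array weights and -1.42 to 0.17 without single pools. Its Day 13 origin difference was 0.44 with the spike-in covariate, and its interaction -0.51 with array weights and -0.43 to 1.16 without single pools. For IL6R the Day 7 origin difference was -0.13 with ribosomal centring and -0.0498 on the other probe set. Its Day 13 origin difference was -0.30 with centring on probe sets above background, -0.17 with the GAPDH covariate, -0.0469 without both replicates and -0.0197 to 0.0291 without single pools. Its interaction was 0.28 with ribosomal centring and 0.0498 on the other probe set, which itself gave 0.0781 in vivo and -0.11 in the interaction with centring on probe sets above background.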
